A study of Mus musculus with 20 samples.

Results

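The insulin-like growth factor (IGF) family was described in C2C12 myotubes that overexpressed the clock genes Per1 or Per2. The family was taken as 10 genes listed by name, namely the ligands Igf1 and Igf2, the receptors Igf1r and Igf2r, and the binding proteins Igfbp2, Igfbp3, Igfbp4, Igfbp5, Igfbp6 and Igfbp7. These are 10 of the 55335 genes of the table, and all 10 passed the filter on low values in both experiments. Igfbp1, the binding protein made mainly by liver, was not on this list and lay under the filter, with mean rlog values of 0 in the Per1 experiment and −2.15 in the Per2 experiment. C2C12 is a mouse myoblast line whose cells fuse into myotubes when the serum is reduced. Poly(A) RNA was sequenced from 5 cultures with an adenovirus encoding Per1 and Gfp against 5 cultures with a virus encoding Gfp only (the Per1 experiment), and from 5 cultures with a virus encoding Per2 and Gfp against 5 other Gfp cultures (the Per2 experiment). Gfp cultures were placed with Per1 or Per2 by the number series of the libraries, since the labels name no experiment. All 20 cultures were of this 1 line, grew on collagen, differentiated in medium with 2% horse serum and 1 µM insulin, received virus on day 4 of differentiation and were harvested 48 h later. The viral genes were driven by the CMV promoter, which is active in most cell types. The Per viruses were given at 320000000 PFU per mL and the Gfp virus at 80000000 PFU per mL, and this 4-fold dose difference cannot be told apart from the Per genes.

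IGF1 and IGF2 are secreted peptides that activate the receptor tyrosine kinase encoded by Igf1r, which signals through insulin receptor substrates, PI3-kinase and AKT to raise protein synthesis and to hold back FOXO-driven protein breakdown. The protein encoded by Igf2r, the cation-independent mannose-6-phosphate receptor, clears IGF2 from the medium and carries newly made enzymes to lysosomes. The binding proteins hold IGFs in the medium and can either withhold them from the receptor or deliver them to it, and myoblasts are known to depend on their own IGF2 to differentiate. PER1 and PER2 repress the transcription driven by CLOCK and BMAL1, which bind E-box sequences in DNA.

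Expression was measured as the regularized log2 value (rlog) that the authors deposited, a normalized log2 count in which differences are drawn toward 0. A gene was called changed at an adjusted p of at most 0.05 (limma, two-sided, Benjamini-Hochberg over 20559 genes in the Per1 experiment and 20628 in the Per2 experiment), and differences are Per minus Gfp on this log2 scale. The experiments were normalized apart, so Per1 and Per2 were each set only against their own Gfp cultures. The labels matched the overexpressed genes. Per1 averaged 19.58 ± 0.11 in Per1 cultures and 15.27 ± 0.028 in their Gfp cultures (SD, n = 5 each), and Per2 averaged 19.71 ± 0.051 in Per2 cultures and 14.82 ± 0.11 in theirs. Libraries of 1 group correlated across genes at 0.9997 or more. On the first component of the deviations from the group means, Per1 library 12 lay farthest out in the Per1 experiment, at 6.37 with the others between −3.89 and 3.97, and no member's call changed without it. In the Per2 experiment, Gfp libraries 1 and 2 stood apart from Gfp libraries 3, 4 and 5. Values without both are given for Igf1r, Igfbp5 and Igfbp6, and not for pathway or marker genes. RNA of all cells in a well was pooled, so fewer cells of a type and less RNA per cell cannot be told apart.

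Levels of different genes were compared per kilobase of the main transcript, as rlog minus log2 of its length. The place of Igf2 is less certain, since it shares exonic bases with another annotated gene. Igfbp5, the binding protein known for its rise when C2C12 cells differentiate, had the highest level per length in all 4 groups, at 16.86 in Per1 cultures and 16.86 in their Gfp cultures, and 16.45 in Per2 cultures and 16.41 in theirs. Igf1 had the lowest, at 7.42 in Per1 cultures and 7.32 in their Gfp cultures, and 6.78 in Per2 cultures and 6.69 in theirs. In Per1 cultures the order from the top was Igfbp5, Igfbp2, Igf2, Igfbp6, Igf2r, Igfbp7, Igfbp3, Igfbp4, Igf1r and Igf1, and no neighbours overlapped between libraries. In the Gfp cultures of that experiment Igf2, at 14.25, and Igfbp2, at 14.15, stood the other way round and their libraries overlapped. In Per2 cultures the order was Igfbp5, Igfbp2, Igfbp6, Igf2, Igf2r, Igfbp7, Igfbp3, Igfbp4, Igf1r and Igf1, with overlap only between Igf2, at 12.88, and Igf2r, at 12.86. The Gfp cultures of that experiment had no overlapping neighbours, and Igf1r, at 8.78, stood above Igfbp4, at 8.60.

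**Figure D1:**
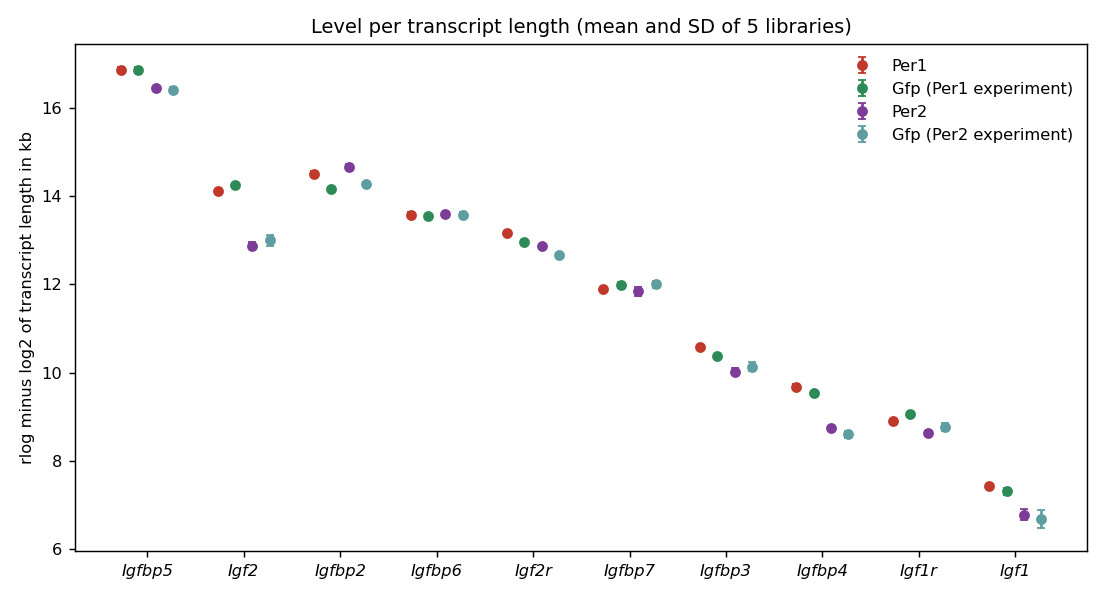
Level per kilobase of transcript (rlog minus log2 of the transcript length, log2 scale) of the 10 IGF family genes in the 4 groups, as points at the mean of 5 libraries with bars for the SD. Igfbp5 is highest and Igf1 lowest in every group, and within each experiment the gene order changes only at Igf2 and Igfbp2 with Per1 and at Igf1r and Igfbp4 with Per2.

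With Per1, 5 members rose (Igf1, Igf2r, Igfbp2, Igfbp3 and Igfbp4), 3 fell (Igf2, Igf1r and Igfbp7) and 2 did not pass the test (Igfbp5 and Igfbp6). Over all genes tested, 20.1% rose and 20.6% fell with Per1. With Per2, 3 members rose (Igf2r, Igfbp2 and Igfbp4), 2 fell (Igf1r and Igfbp7) and 5 did not pass, against 18.6% of all genes that rose and 17.5% that fell. Thus 3 members rose and 2 fell in both experiments, beside 11.7% and 10.6% of the 20153 genes tested in both (22.3% in the same direction). After median centring of the libraries, which moved all differences by −0.022, 3080 genes rose and 5912 fell with Per1 (4131 and 4232 as deposited), and 2765 rose and 5118 fell with Per2 (3842 and 3600 as deposited). Under that centring the call of Igf1 with Per1 was lost and Igfbp3 passed as lower with Per2, and no other member's call changed.

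On the rlog scale, which draws differences toward 0, the changes were small. Folds given below come from these shrunken differences and may understate those of counts. The median difference of the members was 0.067 with Per1 and 0.029 with Per2, beside 0.0011 and 0.00060 over all genes, and 0 members reached a difference of 0.5, which 0.696% of all genes reached and passed with Per1 and 0.621% with Per2. Of the members, 3 with Per1 lay above their Gfp cultures without overlap (14.8% of all genes) and 2 below (15%), and with Per2 3 lay above (13.5%) and 1 below (12.8%).

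**Figure D2:**
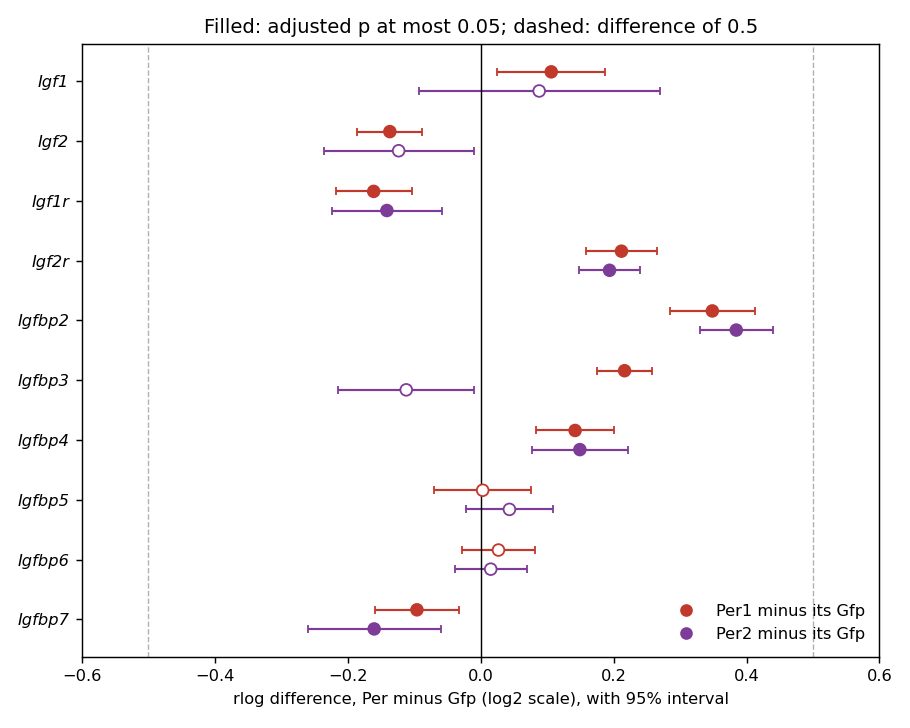
Difference in rlog (log2 scale) between Per1 and its Gfp cultures and between Per2 and its Gfp cultures for the 10 members, with 95% confidence intervals (n = 5 per group). Filled points have an adjusted p of at most 0.05, and Igfbp2 lies farthest from 0 in both comparisons, at 0.35 and 0.38.

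The promoters of 3 members are shown to set the receptors and Igfbp2, which changed in both experiments, beside the sequence that CLOCK and BMAL1 bind. These 3 were picked with their changes known. Igfbp4 and Igfbp7 also changed in both experiments, and their promoters, not printed here, had no match to that sequence. The 250 bases before the RefSeq start of Igf2r (chr17:12769707-12769956, minus strand), Igfbp2 (chr1:72824230-72824479, plus strand) and Igf1r (chr7:67952007-67952256, plus strand) in GRCm38.p6 are printed 5′ to 3′, with the E-box CACGTG, which reads alike on both strands, in capitals.
Igf2r: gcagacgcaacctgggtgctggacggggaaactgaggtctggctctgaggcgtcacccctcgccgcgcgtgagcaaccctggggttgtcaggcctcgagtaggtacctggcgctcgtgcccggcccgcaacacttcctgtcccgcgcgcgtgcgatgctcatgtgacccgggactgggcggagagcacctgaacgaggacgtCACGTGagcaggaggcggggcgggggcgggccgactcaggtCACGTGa
Igfbp2: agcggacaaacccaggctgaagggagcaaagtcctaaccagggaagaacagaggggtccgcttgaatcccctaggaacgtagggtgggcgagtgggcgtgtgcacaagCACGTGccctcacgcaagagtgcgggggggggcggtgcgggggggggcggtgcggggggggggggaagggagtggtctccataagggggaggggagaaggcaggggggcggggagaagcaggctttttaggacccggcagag
Igf1r: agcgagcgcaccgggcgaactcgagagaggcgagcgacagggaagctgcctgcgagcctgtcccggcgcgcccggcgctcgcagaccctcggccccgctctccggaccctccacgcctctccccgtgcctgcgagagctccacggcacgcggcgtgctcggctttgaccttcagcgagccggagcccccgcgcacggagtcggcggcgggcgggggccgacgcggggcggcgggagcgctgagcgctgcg
Igf2r held 2 copies, at −48 to −43 and −7 to −2 from the start, Igfbp2 held 1, at −142 to −137, and the Igf1r window held none. Among the members, CACGTG was in a promoter window (250 bases before to 50 after the start) of 2 of 10 genes, Igf2r and Igfbp2, and in 8.09% of all 27025 genes with a window. The members with a match, Igf2r and Igfbp2, rose with both viruses, although PER1 and PER2 are repressors. Of the members without a match that changed in both experiments, Igfbp4 rose, and Igf1r and Igfbp7 fell. Any part of CLOCK and BMAL1 in these changes was not tested. These matches are a description of letters and not of bound sites, and a second Igfbp2 promoter in the table and all 4 of Igf2 had no match.

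Of the ligands, Igf2 fell and Igf1 rose slightly with Per1, and neither passed with Per2. Igf2, the ligand that muscle cells make as they differentiate (gene on chr7:142650768-142666816), had rlog values of 16.02, 16.05, 16.02, 15.93 and 16.00 in Per1 cultures, against 16.17, 16.16, 16.09, 16.18 and 16.12 in Gfp cultures. Every Per1 culture was below every Gfp culture, with a difference of −0.14 ± 0.023 (SE, adjusted p = 2.22e-04), a fold of 0.910. In the Per2 experiment Igf2 had 14.87, 14.73, 14.81, 14.77 and 14.66 in Per2 cultures, against 15.03, 14.73, 14.96, 14.79 and 14.95 in Gfp cultures. These groups overlapped through Gfp cultures 2 and 4, and the difference of −0.12 did not pass (95% interval −0.24 to −0.010, adjusted p = 0.0831), with values from −0.088 without Gfp 1 (adjusted p = 0.198) to −0.16 without Gfp 2 (adjusted p = 0.0159). Igf2 averaged 16.14 in the Gfp cultures of the Per1 experiment and 14.89 in those of the Per2 experiment, values that were normalized apart and not tested. Igf2 shares 3599 exonic bases on the same strand with the annotated gene Gm49394, so reads of the pair may have been split or left uncounted. How they were counted is not given, and the level of Igf2 per length may be understated. Gm49394 lay far below Igf2 and rose with Per1, with 8.54 in Per1 cultures and 8.32 in Gfp cultures (0.22, adjusted p = 0.00168). It averaged 7.62 in Per2 cultures and 7.62 in their Gfp cultures (−0.0051, adjusted p = 0.96).

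Igf1 (chr10:87858265-87937047), the ligand whose splice forms include the one named mechano growth factor in muscle, had 10.28, 10.22, 10.16, 10.31 and 10.25 in Per1 cultures, against 10.04, 10.19, 10.20, 10.07 and 10.19 in Gfp cultures. Only Per1 culture 13 lay within the range of the Gfp cultures. The difference was 0.11 ± 0.038 (SE, adjusted p = 0.0374), and it did not pass without Gfp 11 (0.081, adjusted p = 0.0971), Gfp 15, Per1 11, Per1 14 or Per1 15, nor without the filter, after median centring (0.084, adjusted p = 0.0948) or after quantile normalization. With Per2, Igf1 had 9.41, 9.58, 9.72, 9.68 and 9.63, against 9.32, 9.69, 9.26, 9.63 and 9.68 in Gfp cultures. Gfp cultures 1 and 3 were low and the others lay among the Per2 cultures, so the difference of 0.088 was within the spread (95% interval −0.093 to 0.27, adjusted p = 0.459).

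**Figure D3:**
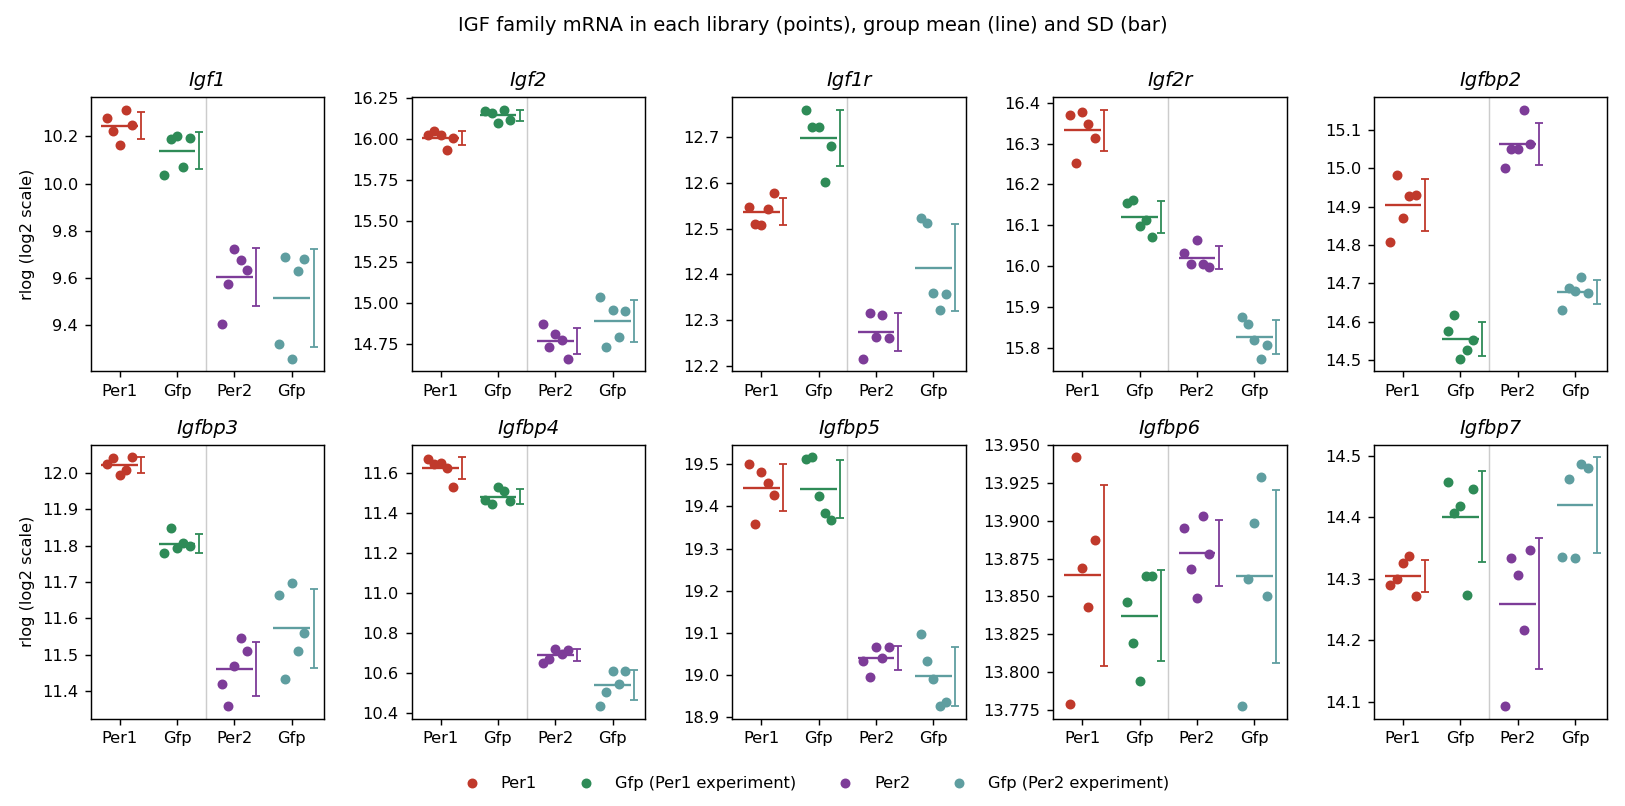
rlog of each of the 10 members by group, with Per1 left of its Gfp cultures and Per2 left of its own, 1 point per library, a line at the mean of 5 and a bar for the SD. The range of the vertical axis differs between panels and does not start at 0, and Igf2r and Igfbp2 are the panels where every Per culture lies above every Gfp culture of its experiment, besides Igfbp3 with Per1 and Igfbp4 with Per2.

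The receptors moved in opposite directions, and did so in both experiments. Igf1r (chr7:67952257-68233668), the signalling receptor, had 12.55, 12.51, 12.51, 12.54 and 12.58 in Per1 cultures, against 12.76, 12.72, 12.72, 12.60 and 12.68 in Gfp cultures. The groups did not overlap, and Igf1r fell by 0.16 on the log2 scale (SE 0.027, adjusted p = 2.08e-04). In Per2 cultures it had 12.22, 12.32, 12.26, 12.31 and 12.26, against 12.52, 12.51, 12.36, 12.32 and 12.36 in Gfp cultures. Again no culture crossed, though Gfp 4 stood next to the Per2 cultures. The difference was −0.14 ± 0.039 (adjusted p = 0.0104), and −0.07 (adjusted p = 0.0395) without Gfp 1 and 2, which held the highest values.

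Igf2r (chr17:12682406-12769706), the clearance and lysosomal sorting receptor, had 16.37, 16.25, 16.38, 16.35 and 16.31 in Per1 cultures, against 16.15, 16.16, 16.10, 16.11 and 16.07 in Gfp cultures. In Per2 cultures it had 16.03, 16.01, 16.06, 16.01 and 16.00, against 15.88, 15.86, 15.82, 15.77 and 15.81 in Gfp cultures. The groups were apart in both experiments, with differences of 0.21 ± 0.025 (adjusted p = 9.36e-06) and 0.19 ± 0.022 (adjusted p = 1.01e-05), folds of 1.16 and 1.14. Airn, a long noncoding RNA known to silence the paternal Igf2r copy in many mouse tissues, is transcribed across the gene from the opposite strand and shares none of its exons. It too was higher without overlap, with 10.14 ± 0.036 in Per1 cultures and 9.83 ± 0.054 in Gfp cultures (difference 0.31), and 9.86 ± 0.041 in Per2 cultures and 9.65 ± 0.041 in Gfp cultures (difference 0.21). Whether counting used strand is not stated in the sources used here, and Airn was named after its values were seen.

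Among the binding proteins, Igfbp2 moved most and rose with both viruses. Igfbp2 (chr1:72824480-72852474), which can bind integrins as well as IGFs and prefers IGF2, had 14.81, 14.98, 14.87, 14.93 and 14.93 in Per1 cultures, against 14.58, 14.62, 14.50, 14.53 and 14.55 in Gfp cultures. In Per2 cultures it had 15.00, 15.05, 15.05, 15.15 and 15.06, against 14.63, 14.69, 14.68, 14.72 and 14.67 in Gfp cultures. The lowest Per culture was above the highest Gfp culture in each experiment. The differences were 0.35 ± 0.030 (adjusted p = 4.27e-07) and 0.38 ± 0.026 (adjusted p = 9.01e-08), folds of 1.27 and 1.31. By size they ranked 405 among the genes tested with Per1 and 277 with Per2, and Igfbp2 was the member past the 95th percentile of size in both, 0.249 with Per1 and 0.234 with Per2. Igfbp5 lies beside Igfbp2 on the opposite strand, with the 3′ ends of the genes facing each other, and did not pass in either experiment.

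Igfbp4 (chr11:99040005-99052655), a binding protein that inhibits IGF action and is cut by the protease PAPP-A, rose with both viruses. It had 11.67, 11.65, 11.65, 11.63 and 11.53 in Per1 cultures, against 11.47, 11.45, 11.53, 11.51 and 11.46 in Gfp cultures. Per1 culture 15 reached down to the level of Gfp culture 14, and the difference was 0.14 ± 0.028 (adjusted p = 7.93e-04). In Per2 cultures it had 10.65, 10.67, 10.72, 10.70 and 10.72, against 10.44, 10.50, 10.61, 10.55 and 10.61 in Gfp cultures. These did not overlap, with a difference of 0.15 ± 0.034 (adjusted p = 0.00306).

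Igfbp3 (chr11:7206086-7215498), the main IGF carrier of serum, rose with Per1 and did not pass with Per2. It had 12.02, 12.04, 11.99, 12.01 and 12.04 in Per1 cultures, against 11.78, 11.85, 11.79, 11.81 and 11.80 in Gfp cultures. The groups were apart, with a difference of 0.22 ± 0.019 (adjusted p = 5.80e-07). In Per2 cultures it had 11.42, 11.36, 11.47, 11.55 and 11.51, against 11.66, 11.43, 11.70, 11.51 and 11.56 in Gfp cultures. These overlapped through Gfp cultures 2 and 4, with a difference of −0.11 (95% interval −0.21 to −0.0094, adjusted p = 0.0835), and with values from −0.081 without Gfp 3 (adjusted p = 0.195) to −0.15 without Gfp 2 (adjusted p = 0.020). Whether the Per1 and Per2 differences themselves differ was not tested.

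Igfbp7 (chr5:77349240-77408045), a relative that binds IGFs weakly, fell with both viruses. It had 14.29, 14.30, 14.33, 14.34 and 14.27 in Per1 cultures, against 14.46, 14.41, 14.42, 14.27 and 14.45 in Gfp cultures. Gfp culture 15 was as low as the lowest Per1 culture and the other Gfp cultures were above them all, with a difference of −0.096 ± 0.029 (adjusted p = 0.0167), and −0.076 (adjusted p = 0.0540) after quantile normalization. In Per2 cultures it had 14.09, 14.33, 14.31, 14.22 and 14.35, against 14.34, 14.46, 14.33, 14.49 and 14.48 in Gfp cultures, which overlapped at Gfp cultures 1 and 3. The difference was −0.16 ± 0.047 (adjusted p = 0.0150). Igfbp7 shares 747 exonic bases with Polr2b, a subunit gene of RNA polymerase on the opposite strand, which was as abundant and had differences of −0.039 (adjusted p = 0.0784) with Per1 and −0.055 (adjusted p = 0.0402) with Per2.

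Igfbp5 (chr1:72858065-72874865) and Igfbp6 (chr15:102144186-102149512), which prefers IGF2, did not pass with either virus. Igfbp5 averaged 19.44 ± 0.056 in Per1 cultures and 19.44 ± 0.070 in Gfp cultures, a difference of 0.0031 (95% interval −0.070 to 0.076, adjusted p = 0.955), which turned to −0.090 (adjusted p = 0.0331) after quantile normalization. With Per2 it averaged 19.04 ± 0.029, against 19.00 ± 0.071 in Gfp cultures, a difference of 0.043 (95% interval −0.022 to 0.11, adjusted p = 0.295), 0.068 (adjusted p = 0.0451) without Gfp 1, and 0.089 (adjusted p = 0.0053) without Gfp 1 and 2. Igfbp6 averaged 13.86 ± 0.060 in Per1 cultures and 13.84 ± 0.030 in Gfp cultures, and 13.88 ± 0.022 in Per2 cultures and 13.86 ± 0.057 in Gfp cultures. Its 95% intervals, −0.029 to 0.082 with Per1 and −0.039 to 0.069 with Per2, hold only small differences on this shrunken scale.

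The rest of the pathway was read from 5 lists of 76 genes, of which 70 passed the filter. With Per1, 15 rose, 33 fell and 22 did not pass, with a median difference of −0.040, and with Per2, 13 rose, 17 fell and 40 did not pass, with a median of −0.034. The shares over all genes were 20.1% up and 20.6% down with Per1, and 18.6% up and 17.5% down with Per2. After median centring, 14 rose and 36 fell with Per1, and 11 rose and 24 fell with Per2. In both experiments 12 rose and 14 fell, beside 11.7% and 10.6% of all genes, and 1 gene was called in opposite directions (1.36% of all genes). This was Cited2, a transcriptional regulator and FOXO target named after its values were seen, at 0.11 with Per1 (adjusted p = 1.65e-04) and −0.11 with Per2 (adjusted p = 6.10e-04). Among the 6 other receptors, ligands and partners tested, 1 rose and 4 fell with Per1, including the insulin receptor Insr (12.57 ± 0.067 in Per1 cultures and 12.74 ± 0.060 in Gfp cultures, difference −0.17, adjusted p = 8.45e-04) and Igf2bp2, which binds the Igf2 message (−0.11, adjusted p = 8.07e-05). Igfals, which completes the serum IGF complex, rose at a low level (0.070, adjusted p = 0.00527) and Ins2, an insulin gene, fell at a low level (−0.068, adjusted p = 0.0242). With Per2, limma called 0 of these 6 in either direction, 0 higher and 1 lower at an unadjusted p under 0.05, and Insr had a difference of −0.028 (adjusted p = 0.471).

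Of the 11 proteases and inhibitors of IGF binding protein cleavage, 4 rose and 5 fell with Per1, and 3 rose and 5 fell with Per2. Stc1, stanniocalcin 1, an inhibitor of the pappalysins, had the largest difference of the pathway lists with Per1, at 10.89 ± 0.044 in Per1 cultures and 9.99 ± 0.041 in Gfp cultures (difference 0.89, adjusted p = 1.70e-11), and 10.38 ± 0.11 in Per2 cultures against 10.14 ± 0.085 in Gfp cultures (0.24, adjusted p = 0.00208). Pappa, which encodes PAPP-A, fell with both viruses, by 0.19 with Per1 (adjusted p = 5.65e-04) and by 0.24 with Per2 (adjusted p = 2.13e-04). The mRNA of Igfbp4, whose protein is a substrate of that protease, rose in the same cultures, and cleavage of the protein was not measured. Stc2, the other stanniocalcin gene of the list and named after its values were seen, rose with Per1 (0.13, adjusted p = 1.05e-04). With Per2 it did not pass (0.049, adjusted p = 0.308). The metalloproteinase inhibitors Timp1 and Timp3 fell with Per1, by 0.32 and 0.29, and with Per2, by 0.15 and 0.14. Htra1, a secreted serine protease that can cut IGF binding proteins, was higher by 0.19 with Per1 and 0.13 with Per2 (adjusted p = 0.00201).

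Downstream of the receptors, 2 of 12 substrates and adaptors rose and 6 fell with Per1, and 2 rose and 3 fell with Per2. Irs2, the insulin receptor substrate, had the largest fall of that list in both, with 9.88 ± 0.054 in Per1 cultures and 10.19 ± 0.027 in Gfp cultures (−0.31, adjusted p = 8.23e-07), and 9.87 ± 0.039 in Per2 cultures and 10.33 ± 0.089 in Gfp cultures (−0.46, adjusted p = 8.96e-07). Grb14, an adaptor that inhibits the insulin receptor, rose by 0.31 with Per1 and by 0.16 with Per2, and Grb2, the adaptor to RAS, rose by 0.074 and 0.091. The adaptor genes Sh2b1 and Shc1 fell with Per1, by 0.13 and 0.12.

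Of 28 genes of PI3K, AKT and mTOR signalling, 3 rose and 13 fell with Per1, and 4 rose and 5 fell with Per2. Pik3cb, the p110β catalytic subunit, averaged 11.26 ± 0.023 in Per1 cultures and 11.69 ± 0.042 in Gfp cultures (−0.43, adjusted p = 3.91e-09), and 11.10 ± 0.033 in Per2 cultures and 11.49 ± 0.067 in Gfp cultures (−0.40, adjusted p = 4.06e-07). Its regulatory partner Pik3r2 was higher by 0.26 with Per1 and 0.14 with Per2. Ddit4, an inhibitor of mTOR complex 1, was higher by 0.32 and 0.15, and Phlpp2, an AKT phosphatase, was lower, with differences of −0.22 and −0.20. All 4 passed in both experiments.

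Of 13 FOXO factors and FOXO target genes, 5 rose and 5 fell with Per1, and 4 rose and 4 fell with Per2. Bnip3, which marks mitochondria for autophagy, averaged 14.59 ± 0.094 in Per1 cultures and 14.30 ± 0.13 in Gfp cultures (0.29, adjusted p = 6.13e-04), and 14.00 ± 0.062 in Per2 cultures and 13.44 ± 0.090 in Gfp cultures (0.56, adjusted p = 1.50e-07). Foxo4, one of the factors, rose by 0.069 with Per1 and 0.18 with Per2. In the other direction went Pdk4, the kinase that restrains pyruvate dehydrogenase (−0.29 with Per1 and −0.27 with Per2), and Gadd45a, a stress response gene (−0.21 and −0.17). Trim63, the muscle ubiquitin ligase MuRF1, fell by 0.18 with Per1 (adjusted p = 4.40e-06) and had a difference of 0.0045 with Per2 (adjusted p = 0.909). The next genes were named after their values were seen. Fbxo32, another muscle ubiquitin ligase gene, rose by 0.15 with Per1 (adjusted p = 8.07e-05) and by 0.071 with Per2 (adjusted p = 0.0209). Foxo1 fell by 0.10 with Per1 (adjusted p = 0.00185) and did not pass with Per2 (−0.054, adjusted p = 0.131). Foxo3 did not pass with either virus.

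**Figure D4:**
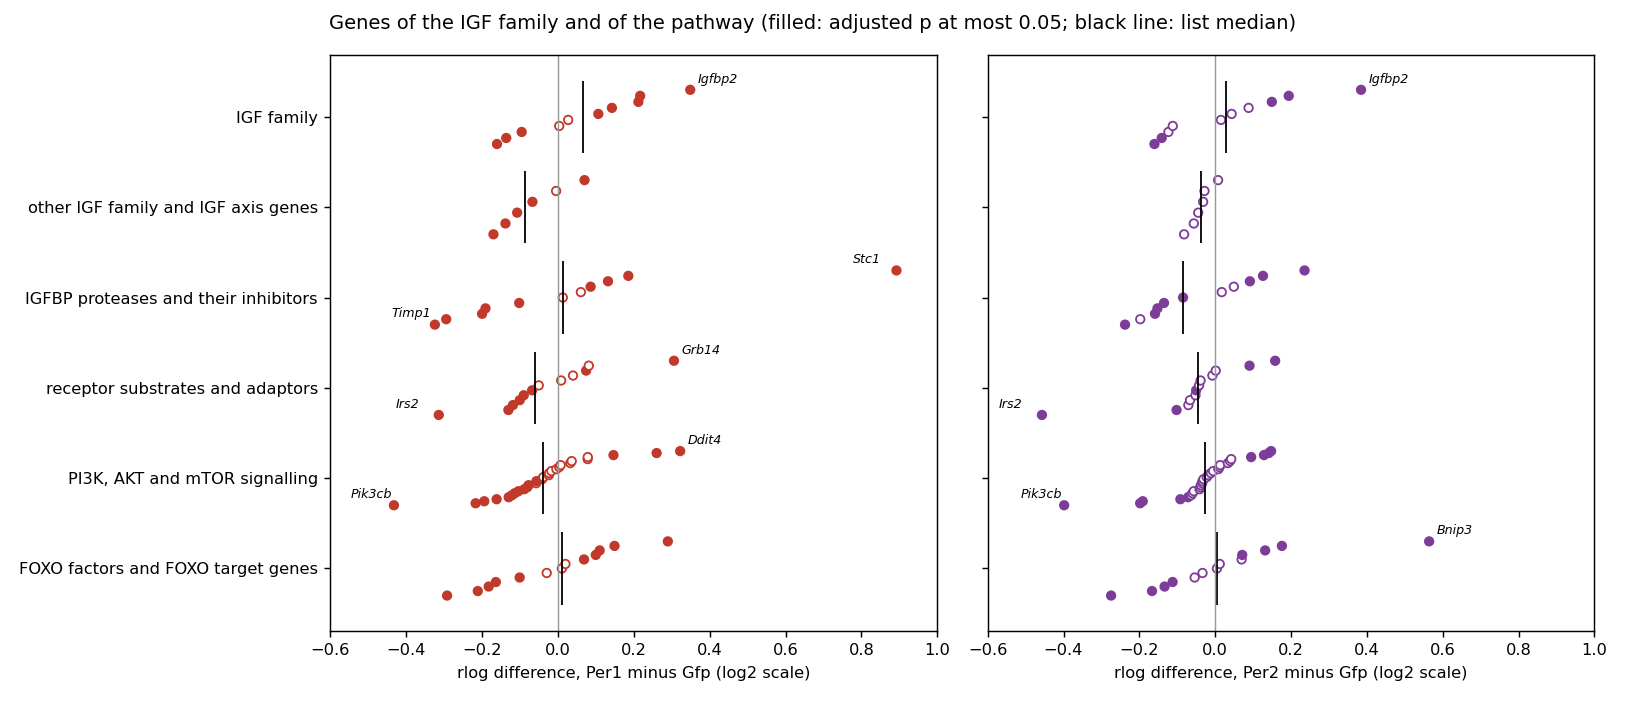
Difference in rlog (log2 scale) from the Gfp cultures for every tested gene of the IGF family and of the 5 pathway lists, with Per1 on the left and Per2 on the right. Each point is 1 gene, filled where the adjusted p is at most 0.05, and the black lines are list medians, 0.067 for the family with Per1 and 0.029 with Per2.

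Markers of differentiated and other cells moved beside these results, and their part in them was not tested. For the marker counts here and in the next paragraph, the shares over all genes tested were 20.1% up and 20.6% down with Per1. They were 18.6% up and 17.5% down with Per2. With Per1, 9 of 10 myotube markers fell, among them desmin Des (−0.10) and skeletal actin Acta1 (−0.14), and the summed level of the list on the log2 scale was 20.83 to 20.88 in Per1 cultures, against 20.98 to 21.02 in Gfp cultures. With Per2, 1 rose and 3 fell, and the summed levels overlapped, at 20.53 to 20.59 in Per2 cultures and 20.53 to 20.65 in Gfp cultures. Of 8 myoblast and dividing cell markers, 3 rose and 2 fell with Per1, and 3 rose and 1 fell with Per2, with summed levels of 16.47 to 16.61 in Per1 cultures and 16.39 to 16.50 in Gfp cultures, and 16.63 to 16.79 in Per2 cultures and 16.53 to 16.68 in Gfp cultures. In that list Top2a, a dividing cell gene, had differences of 0.038 (adjusted p = 0.390) with Per1 and 0.094 (adjusted p = 0.0371) with Per2, and Mki67, another, −0.097 (adjusted p = 0.0428) and −0.011 (adjusted p = 0.868). The 2 next genes were named after their values were seen. The myoblast factor gene Myf5 had the largest difference of the list with Per1, at 13.36 ± 0.031 in Per1 cultures and 12.83 ± 0.028 in Gfp cultures (0.53, adjusted p = 9.44e-11). It had 12.60 ± 0.026 in Per2 cultures and 12.46 ± 0.038 in Gfp cultures (0.14, adjusted p = 2.25e-04). With Per2 the largest was that of Cdk1, a dividing cell gene (0.17, adjusted p = 6.61e-04), which did not pass with Per1 (0.068, adjusted p = 0.0791).

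Of 7 fibro-adipogenic markers, 5 rose with each virus, with summed levels of 18.94 to 18.96 in Per1 cultures and 18.65 to 18.69 in Gfp cultures, and 18.95 to 19.04 in Per2 cultures and 18.67 to 18.82 in Gfp cultures. These sums are mostly Col3a1, which averaged 18.68 in Per1 cultures, beside 15.94 for Ly6a. Col3a1, a collagen gene, rose by 0.26 with Per1 and 0.25 with Per2, and Ly6a, which encodes Sca-1, by 0.38 and 0.29, while Pdgfra, the defining receptor of these cells and named after its values were seen, did not pass (−0.12, adjusted p = 0.0929, and 0.023, adjusted p = 0.672). Of the macrophage list 1 of 5 tested markers rose and 1 fell with Per1, and with Per2 2 of 6 fell and the others did not pass. Its summed levels were 10.13 to 10.20 in Per1 cultures and 10.15 to 10.19 in Gfp cultures, and 10.23 to 10.26 in Per2 cultures and 10.30 to 10.36 in Gfp cultures. The defining macrophage gene Adgre1 was at 0 in all 10 libraries of the Per2 experiment and under the filter in the Per1 experiment, while Cd14 had differences of −0.022 and −0.0098 and Itgam of 0.10 with Per1 and −0.17 with Per2. Of 5 endothelial markers 3 rose and 1 fell with Per1, and with Per2 3 fell and the others did not pass, with summed levels of 9.64 to 9.88 in Per1 cultures and 9.50 to 9.68 in Gfp cultures, and 9.12 to 9.28 in Per2 cultures and 9.09 to 9.37 in Gfp cultures. Its most abundant genes, Vwf and Tek, both had differences of 0.21 with Per1, and of −0.037 and 0.067 with Per2. Of 5 osteogenic markers 1 fell with Per1 and 2 with Per2 and the others did not pass, with summed levels of 12.64 to 12.81 in Per1 cultures and 12.76 to 12.89 in Gfp cultures, and 12.24 to 12.36 in Per2 cultures and 12.39 to 12.49 in Gfp cultures. With Per2, the summed macrophage and osteogenic levels thus lay below those of every Gfp culture. Runx2, at 11.88 in Per1 cultures and 12.06 in their Gfp cultures, had differences of −0.18 and −0.099 and Dmp1 of −0.055 and −0.24. Nearly all of the osteogenic sum came from Runx2 and Dmp1. In Per1 cultures Dmp1 averaged 11.47, and Sp7, the next, 5.39.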

How the data were processed

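Cultures were grouped from the sample labels, and each Gfp library was placed with the Per libraries numbered in its series (Per1 11 to 15 with Gfp 11 and 13 to 16, Per2 1 to 5 with Gfp 1 to 5). STAR alignment and gene-level counting were followed by DESeq2, from which the authors deposited regularized log2 values (rlog). The deposited log2 values hold no read counts, so depth is unknown and no interval for counting error could be given. The labels name the genome build mm10 and the paper's methods GRCm39, and the labels also give another library kit and sequencer. Whether counting used strand is not given in the sources used here.

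A gene was tested when its rlog averaged 3 or more in the 10 libraries of an experiment, with limma 3.58.1 in R 4.3.3 (two-sided, with a variance trend, and with Benjamini-Hochberg adjusted p values over all genes tested), which was also tested on simulated data. Levels in Per1 and Per2 cultures were not compared with each other, because their values came from separate normalizations. This was seen in 2712 genes that were constant at 0 throughout the Per1 experiment alone and 2391 throughout the Per2 experiment alone. The methods of the paper describe RNA from within an experimental replicate, so p values reflect only how far these cultures varied. Symbols and transcript lengths were read from GENCODE M39, where 51654 of the 55335 gene IDs (35 in the same version) and all 130 listed symbols were found. Gene positions and promoters came from RefSeq on GRCm38.p6.

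The members and lists were chosen with earlier results of these data known. Named are all members, up to 4 genes per pathway list and comparison with the largest called difference and no overlap, the 2 most abundant genes of each marker list, and Per1 and Per2, each with its value in both comparisons where useful. Alternatives were quantile normalization, median centring of the libraries, a low-value filter set at 5 or left out, array weights, no variance trend, a call that also needs a difference of 0.5, the replicate number as a block, and each library left out in turn. Leaving out Gfp libraries 1 and 2 of the Per2 experiment together was chosen after the data were seen.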

Additional observations from a re-analysis of the deposited data

Results flagged for a closer look

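Igfbp3 differed by 0.22 between Per1 cultures and their Gfp cultures and by −0.11 between Per2 cultures and theirs, and these differences lie 0.33 apart on the log2 scale. It drew attention because every Per1 culture was above the mean of its Gfp cultures and every Per2 culture was below the mean of its own. The difference between the experiments was not tested, since their values were normalized apart.

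Igfbp7 in Gfp culture 15 of the Per1 experiment, at 14.27, stood away from the other 4 Gfp cultures, at 14.41 to 14.46. Its gap to the nearest was 0.730 of the group's range, above the critical value for 5 samples, a size that chance alone passes in some of many such groups. Without this culture the difference between Per1 and Gfp was −0.13 (limma, adjusted p = 1.11e-04), beside −0.096 with it. The culture was picked from these same values and was the lowest Gfp culture, so leaving it out had to widen the fall. The adjusted p without it is thus no separate evidence.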

How the results depend on the processing

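Of 350 values of single members under the alternatives, 321 kept their direction and their side of an adjusted p of 0.05. Requiring a difference of 0.5 as well left 0 members higher and 0 lower in either comparison, and 1 other pathway gene higher and 0 lower in each. Quantile normalization gave Igfbp5 a difference of −0.090 with Per1 (adjusted p = 0.0331), the opposite sign to the value as deposited, and 0.090 with Per2 (adjusted p = 0.0417), and took Igfbp7 with Per1 to an adjusted p of 0.054. Members near 0 that did not pass changed sign too. Median centring gave Igfbp5 −0.019 with Per1 and Igfbp6 −0.0064 with Per2, Igfbp6 with Per2 was −0.014 without Gfp libraries 1 and 2, and without each replicate in turn Igfbp5 with Per1 lay between −0.015 and 0.025 and Igfbp6 with Per2 between −0.0063 and 0.032. Igf1 with Per1 did not pass without a filter (adjusted p = 0.0742), after either rescaling (0.0948 and 0.0953), or without 1 of 5 libraries. With Per2, array weights brought Igf2 past the threshold (−0.14, adjusted p = 0.0368) and median centring Igfbp3 (−0.13, adjusted p = 0.0485). The cause of these changes was not tested.

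Without each replicate in turn, 4 to 5 members rose and 3 to 3 fell with Per1, 3 to 4 rose and 2 to 4 fell with Per2, 15 to 17 other pathway genes rose and 29 to 35 fell with Per1, and 11 to 13 rose and 15 to 18 fell with Per2. With Per2, the 4 that fell came without Gfp library 2, when Igf2 and Igfbp3 passed, and the 4 that rose without Gfp library 1, when Igfbp5 passed. Without Gfp libraries 1 and 2 together, 4 members rose and 2 fell with Per2, Igfbp5 among those that rose.

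Same-numbered libraries did not deviate together, with correlations of −0.015 to 0.14 over 4 pairs with Per1 and −0.10 to 0.18 over 5 pairs with Per2, and 1 Per library of each experiment correlated best with its own number. With the replicate block, which left out Gfp 16 and Per1 12, 5 members rose and 3 fell with Per1, and 3 rose and 3 fell with Per2, where Igf2 passed (−0.12, adjusted p = 0.0252). No other member's call changed under the block. The absence of read counts limits the precision of every value here.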
